A study of Mus musculus with 16 samples.

Results

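The casein genes are 5 genes of mouse chromosome 5: Csn3 (kappa-casein), Csn1s1, Csn1s2a, Csn1s2b and Csn2. Every probe set whose platform gene symbol was one of these 5 was taken, which gave 11 of the 45037 probe sets on the array and 5 of its 18194 named genes. The set was chosen by the mutant and wild type values of Csn3, which is lower in Cecr2 mutants of each strain, so the mutant and wild type values of the casein genes are given as a description, with no test.

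Total RNA of 16 single mouse embryos was measured, 1 embryo per Affymetrix mouse expression array, with 4 groups of 4 embryos each. These were wild type BALB/cCrl, wild type FVB/N, and homozygotes for the gene trap allele Cecr2Gt45Bic (genotype Cecr2Gt45Bic/Cecr2Gt45Bic) on each of these inbred strains, called mutants here. A gene trap is an insertion that interrupts a gene, here Cecr2, which encodes a bromodomain protein of ISWI chromatin remodelling complexes and is needed for closure of the cranial neural tube. Every embryo was female, had 11 to 14 somites, had not yet closed its cranial neural tube and was separated from its extraembryonic membranes before RNA extraction.
The allele had been backcrossed to each strain for over 10 generations. BALB/cCrl mutants descended from heterozygous parents and FVB/N mutants from homozygous parents, so in FVB/N the genotype cannot be told apart from the genotype of the dam. Litter was not stated in the sources used here, and p-values measure the spread between these embryos. The whole embryo was hybridised, so fewer cells that express a gene and less RNA per cell cannot be told apart.

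Caseins are the secreted phosphoproteins of milk, which bind calcium phosphate and assemble into micelles. The calcium-sensitive caseins (alpha and beta types, encoded here by Csn1s1, Csn1s2a, Csn1s2b and Csn2) form the body of the micelle, and kappa-casein lies at its surface and keeps it in suspension. In the lactating mammary gland the genes are switched on by prolactin, through the kinase Jak2 and the transcription factor Stat5, together with glucocorticoids. Embryos at the neural tube stage have no mammary gland.

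On the build GRCm38.p6, the 5 genes lie on chromosome 5 between bases 87666208 and 87932550, a span of 266.3 kb, in the order Csn1s1, Csn2, Csn1s2a, Csn1s2b and Csn3. Csn3 itself spans bases 87925579 to 87932550. A lncRNA gene, 1700066N21Rik (bases 87908588 to 87979351), spans all of Csn3 in the same annotation, and it was not analysed here. RefSeq promoter sequences of that build (250 bases before the gene start and 50 from it) were at hand for 3 of the 5 genes, and they are printed because Stat5 is the classical activator of these genes. Each is written 5′ to 3′ on the strand of its gene, with capitals marking TTCNNNGAA, the palindrome Stat5 is known to bind, which reads the same on both strands.
Csn1s1 promoter, chr5:87665958-87666257, plus strand: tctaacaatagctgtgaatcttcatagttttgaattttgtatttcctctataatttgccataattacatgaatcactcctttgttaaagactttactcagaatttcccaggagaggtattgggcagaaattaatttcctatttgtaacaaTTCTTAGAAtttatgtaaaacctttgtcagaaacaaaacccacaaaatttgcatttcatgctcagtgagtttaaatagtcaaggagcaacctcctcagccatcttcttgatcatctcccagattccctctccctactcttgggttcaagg
Csn2 promoter, chr5:87699376-87699675, minus strand: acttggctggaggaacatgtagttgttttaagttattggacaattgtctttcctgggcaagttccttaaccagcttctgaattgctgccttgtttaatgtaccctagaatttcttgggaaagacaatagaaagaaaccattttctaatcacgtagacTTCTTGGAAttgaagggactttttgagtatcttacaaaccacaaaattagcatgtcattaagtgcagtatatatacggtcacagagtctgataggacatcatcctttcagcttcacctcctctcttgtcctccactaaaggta
Csn1s2a promoter, chr5:87774200-87774499, plus strand: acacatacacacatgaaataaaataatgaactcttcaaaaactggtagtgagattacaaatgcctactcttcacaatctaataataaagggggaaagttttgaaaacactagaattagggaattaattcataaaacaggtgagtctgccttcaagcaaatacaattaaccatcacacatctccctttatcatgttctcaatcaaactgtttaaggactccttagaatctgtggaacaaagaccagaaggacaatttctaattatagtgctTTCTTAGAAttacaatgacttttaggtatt
The match began at position -100 from the gene start in Csn1s1, at position -93 in Csn2 and at position 20 in Csn1s2a. The same letters occurred in 2726 of 32851 promoters of this length, or 8.3%. A match describes the sequence and does not show that a factor binds there. Csn3 and Csn1s2b are named only.

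Csn3 was the casein gene with a level clearly above the background limit set below, through 1 of its probe sets. Values are log2 expression levels of the authors' table, and the level of one probe set cannot be compared with that of another. For probe set 1419735_at, the BALB/cCrl wild types 1 to 4 were at 7.87, 7.79, 7.79 and 7.79. The BALB/cCrl mutants were at 6.90, 6.44, 6.81 and 6.71. No BALB/cCrl mutant reached the level of any BALB/cCrl wild type, and the mutants were the more spread out. In FVB/N the wild types were at 7.75, 7.67, 7.99 and 7.58. The FVB/N mutants were at 6.82, 7.08, 6.84 and 6.96. Here too mutants and wild types did not overlap.

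The mean Csn3 level was 7.81 ± 0.037 (SD, n = 4) in BALB/cCrl wild types and 6.72 ± 0.20 (SD, n = 4) in BALB/cCrl mutants. The log2 difference, mutant minus wild type, was -1.10 (SE 0.099), a 2.14-fold lower level. In FVB/N the means were 7.75 ± 0.18 (SD, n = 4) in wild types and 6.93 ± 0.12 (SD, n = 4) in mutants. That log2 difference was -0.82 (SE 0.099), a 1.76-fold lower level. Ordered by the size of the log2 difference from the most negative, Csn3 stood at place 6 of 45037 probe sets in BALB/cCrl and at place 27 in FVB/N. The BALB/cCrl difference minus the FVB/N difference was -0.28 on the log2 scale (SE 0.14, 95% interval -0.57 to 0.018), and it was not tested because it is built from the contrasts that chose the gene.

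**Figure D1:**
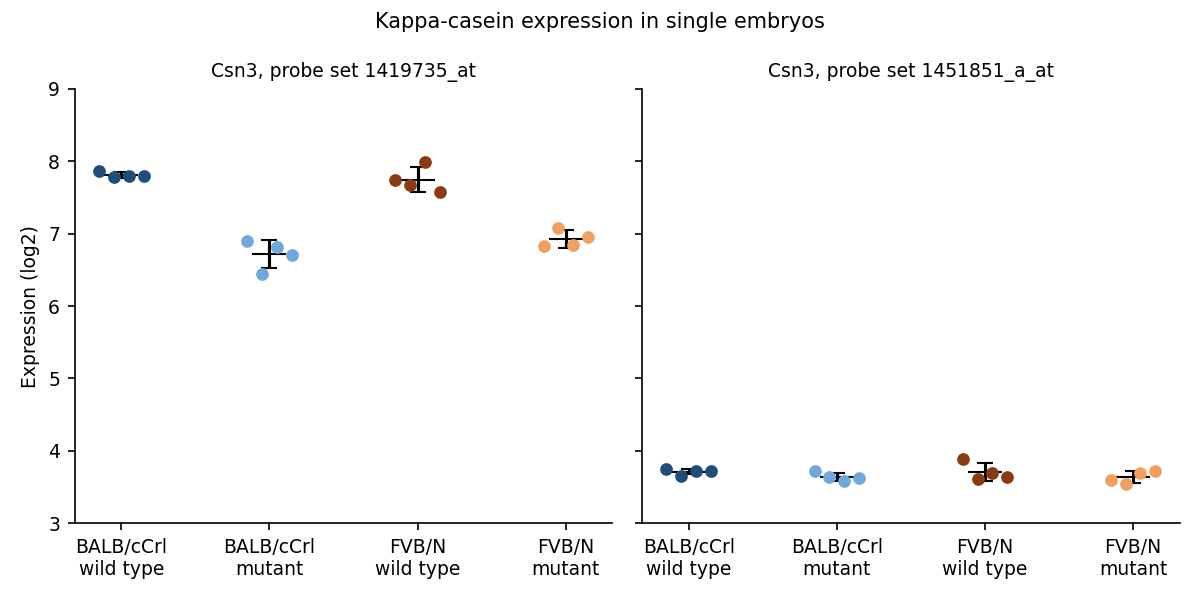
Log2 expression of the 2 Csn3 probe sets (y axis) in the 4 groups (x axis); each point is 1 embryo, and the black bars are the mean and SD of 4 embryos. For 1419735_at all mutants lie between 6.44 and 7.08 and all wild types between 7.58 and 7.99, while for 1451851_a_at all 16 embryos lie between 3.54 and 3.89.

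The strain contrasts were not the ones that chose the genes, so those of Csn3 were tested, in limma with Benjamini-Hochberg adjustment over all 45037 probe sets. They use the same embryos as the contrasts that chose Csn3, so these tests are not fully independent of the choice. The order of the group means for 1419735_at was BALB/cCrl wild type, FVB/N wild type, FVB/N mutant and BALB/cCrl mutant. Wild types of the 2 strains did not pass the test: BALB/cCrl minus FVB/N was 0.06 on the log2 scale (SE 0.099, 95% interval -0.14 to 0.27), with an adjusted p of 0.798 in limma, and the groups overlapped. In the mutants the difference was -0.21 (SE 0.099, 95% interval -0.42 to -0.0034), with an unadjusted p of 0.0467 and an adjusted p of 0.212 in limma. Mutants of the 2 strains overlapped as well, so within a genotype the neighbours in the order did not pass the adjusted test. Over 17 alternative settings the adjusted p ranged from 0.506 to 1.0 in wild types and from 0.136 to 0.504 in mutants.

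The other Csn3 probe set did not show the difference. Probe set 1451851_a_at averaged 3.67 over the 16 embryos, with a range of 3.54 to 3.89. Its BALB/cCrl wild types were at 3.76, 3.66, 3.72 and 3.72 and the mutants of that strain at 3.72, 3.64, 3.59 and 3.62. Its FVB/N wild types were at 3.89, 3.61, 3.69 and 3.64 and the mutants at 3.60, 3.54, 3.69 and 3.72. Mutants and wild types overlapped in each strain, with log2 differences of -0.07 (SE 0.068) in BALB/cCrl and -0.07 (SE 0.068) in FVB/N. Across the 16 embryos the 2 probe sets correlated at r = 0.44, and at r = 0.11 once the group means were taken out. These correlations are descriptions over embryos that share their groups. The lower Csn3 level in mutants thus rested on 1 of 2 probe sets.

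Background was read from 15 probe sets of Y-linked genes, which female embryos cannot transcribe. Their means over the 16 arrays ran from 3.22 to 7.03, with a median of 3.74, and 12 of the 15 were under 5, the highest of these at 4.64. A level of 4.74, 1 log2 unit above that median, was used as the limit of dim probe sets, and 33471 of the 45037 probe sets lay above it. The lowest Csn3 value of 1419735_at in a mutant, 6.44, was well above this limit. The other 10 casein probe sets had means of 3.34 to 4.81 and single values of 3.22 to 5.09. Of these, 9 were dim by this limit, and Csn1s1 lay just above it.

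Csn1s1, an alpha-casein gene, was read by probe set 1420627_a_at, with a mean of 4.81. Its BALB/cCrl wild types were at 4.89, 4.69, 5.005 and 4.95 and the BALB/cCrl mutants at 4.85, 5.05, 5.01 and 5.09. Its FVB/N wild types were at 4.62, 4.87, 4.71 and 4.67 and the FVB/N mutants at 4.70, 4.74, 4.57 and 4.61. Mutants and wild types overlapped in each strain, whereas every BALB/cCrl mutant was above every FVB/N mutant. The mutant minus wild type difference was 0.12 (SE 0.086) in BALB/cCrl and -0.06 (SE 0.086) in FVB/N on the log2 scale.

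Csn1s2a, an alpha-casein gene of the second type, was read by 5 probe sets with means of 3.34 (1455579_at), 3.68 (1420633_a_at), 3.70 (1438694_at), 3.76 (1436488_at) and 4.21 (1436170_a_at). Their mutant minus wild type differences did not share a sign. In FVB/N, 1438694_at was 0.21 higher in mutants (SE 0.087) and 1420633_a_at had a difference of -0.15 (SE 0.086). The wild types of 1438694_at were at 3.66, 3.49, 3.77 and 3.64 and the mutants at 3.80, 3.69, 3.87 and 4.05, which overlapped. Csn1s2b, its neighbour of the same type, had a mean of 3.97 and a range of 3.79 to 4.13 over the 16 embryos.

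Csn2, which encodes beta-casein, had 2 probe sets with means of 3.82 (1420369_a_at) and 4.23 (1420370_s_at). For 1420370_s_at the FVB/N wild types were at 4.08, 4.26, 3.98 and 4.21 and the FVB/N mutants at 4.23, 4.44, 4.55 and 4.20. These groups overlapped, and the log2 difference of 0.22 (SE 0.098) was the most positive of the 11 casein probe sets in FVB/N. In BALB/cCrl the same probe set had a difference of -0.01 (SE 0.098).

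**Figure D2:**
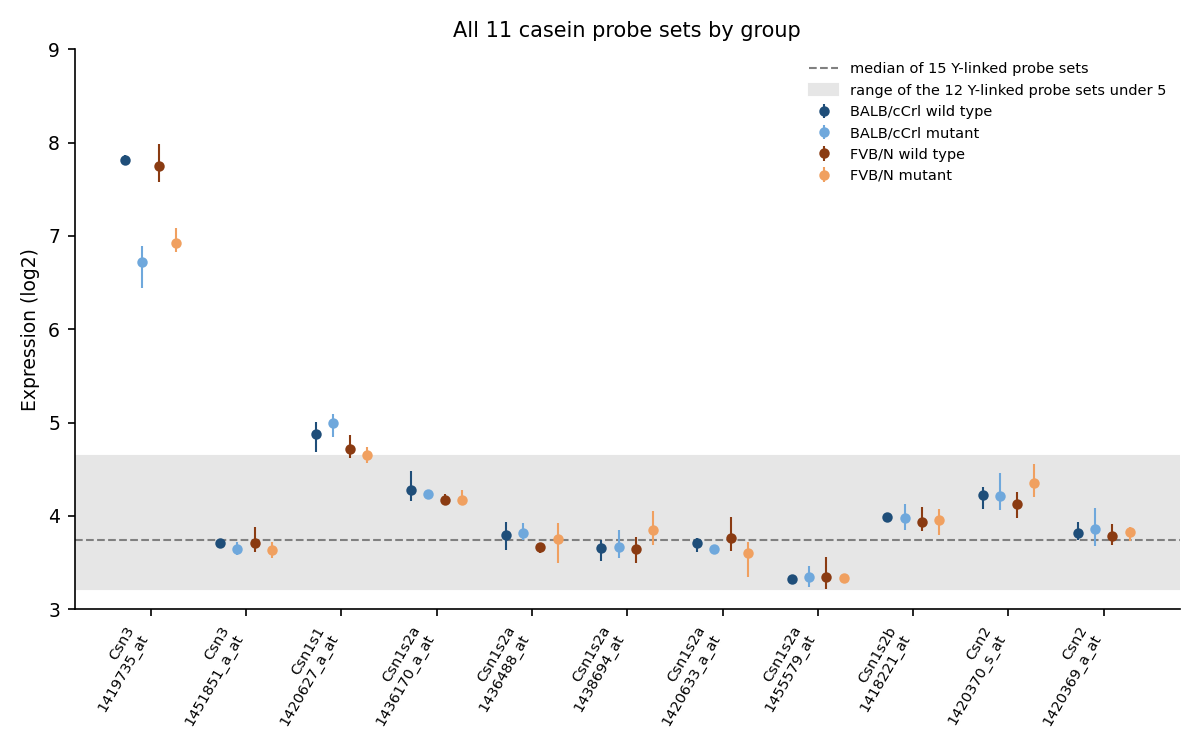
Log2 expression (y axis) of the 11 casein probe sets (x axis); points are means of 4 embryos in each group and vertical lines run from the lowest to the highest embryo. Only Csn3 1419735_at lies far above the grey band, which is the range (3.22 to 4.64) of the 12 Y-linked probe sets under 5. The Y-linked probe sets with means of 5.04, 5.89 and 7.03 are outside the band. The dashed line is the median of all 15, at 3.74.

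Counted over the casein probe sets, mutants lay all below the wild types in 1 of 11 in BALB/cCrl, where 3.24% of all probe sets did so, and in 1 of 11 in FVB/N, where 3.15% did. That probe set was Csn3 1419735_at in each strain, which is the value that chose the set, so nothing is read from these counts. Over all probe sets the limma test called 9 (0.0200%) between genotypes in BALB/cCrl and 268 (0.595%) in FVB/N. The other 10 casein probe sets had log2 differences from -0.07 to 0.12 in BALB/cCrl and from -0.15 to 0.22 in FVB/N. The median of all 11 was -0.0081 in BALB/cCrl and 0.0063 in FVB/N, beside 0.0051 and 0.0097 over all probe sets.

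In the strain contrast of wild types 0 of 11 casein probe sets passed the limma test, where 6.74% of all probe sets were called. At an unadjusted p under 0.05 there were also 0 of 11, where 18.4% of all probe sets were. In the mutants 1 of 11 passed, where 10.8% of all probe sets were called, so the share of casein probe sets was near the background. At an unadjusted p under 0.05 there were 3 of 11 (Csn3 1419735_at, Csn1s1 and Csn1s2a 1438694_at), where 22.6% of all probe sets were. The called probe set was that of Csn1s1, higher in BALB/cCrl mutants (5.001 ± 0.11, SD, n = 4) than in FVB/N mutants (4.66 ± 0.078, SD, n = 4). The log2 difference was 0.34 (SE 0.086) with an adjusted p of 0.0114 in limma, and 4 of 4 BALB/cCrl mutants were higher than every FVB/N mutant, as in 5.62% of all probe sets. Without FVB/N mutants 3 and 4 the difference was 0.28 and the adjusted p 0.109. In wild types the Csn1s1 strain difference was 0.16 (SE 0.086), with an adjusted p of 0.328 in limma. All of these levels lie near the limit of dim probe sets.

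The authors also deposited log2 tables made by gcRMA for 3 pairs of groups, each normalised by itself. The genotype pairs hold the same arrays that chose Csn3, so the lower values of Csn3 1419735_at in mutants there are a description. In the BALB/cCrl pair, wild types were at 7.03, 6.73, 6.90 and 6.86 and mutants at 5.18, 5.004, 5.41 and 5.57. In the FVB/N pair, wild types were at 6.79, 6.86, 7.44 and 6.63 and mutants at 4.67, 5.61, 5.27 and 5.27. The groups did not overlap in either pair. The log2 difference was -1.59 (SE 0.134) in BALB/cCrl, a 3.01-fold lower level, and -1.73 (SE 0.252) in FVB/N, a 3.31-fold lower level. On this scale the 2 strains were the other way round in size than in the table of all arrays, where the BALB/cCrl difference was the larger. The tables have a floor near 2.1 (2.137, 2.125 and 2.127), and all 80 values of the other 10 casein probe sets lay within 0.05 of it in each table. Between 32.4% and 32.8% of all probe sets were at the floor on all arrays of a table. Calcium-sensitive caseins and the other Csn3 probe set were therefore not measured above the floor in this processing. Values at the floor cannot show whether Csn1s1 differed between wild types. The Csn1s1 call between mutants was not examined by gcRMA, as no such values were used for the mutant pair.

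**Figure D3:**
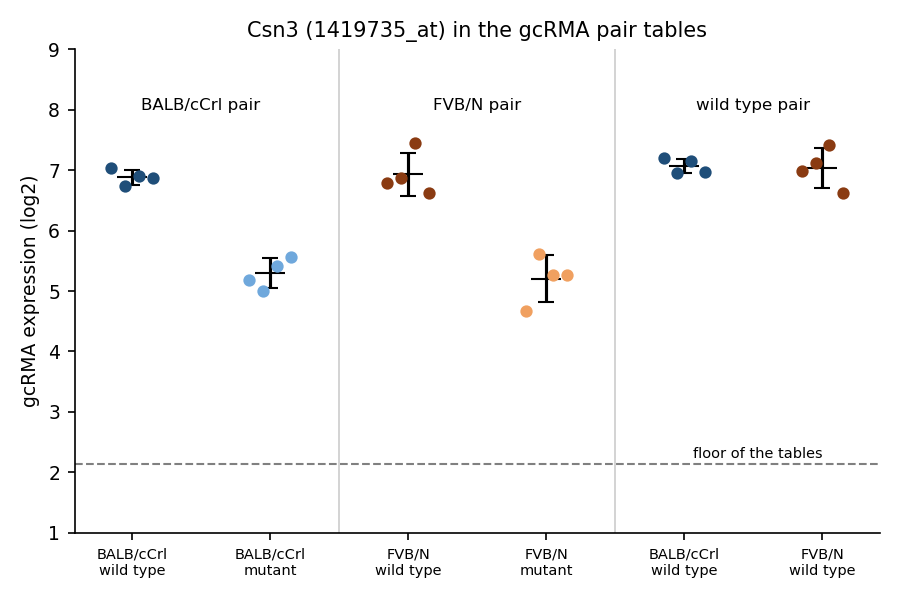
Log2 gcRMA expression of Csn3 1419735_at (y axis) in the 3 deposited pair tables (x axis, separated by vertical lines); points are embryos and black bars the mean and SD of 4. Mutants lie between 4.67 and 5.61 and wild types between 6.62 and 7.44, and the dashed line is the floor of the tables, at 2.137 in the highest of them.

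Arrays of a group correlated at 0.9946 to 0.9979 over all probe sets. On the second principal component, which held 9.39% of the variance, FVB/N mutants 3 and 4 stood apart at 24.01 and 24.71. Without them the Csn3 difference in FVB/N was -0.79 on the log2 scale. Granzyme d (Gzmd), a gene of uterine natural killer cells, was at 7.24 in BALB/cCrl wild type 1 and at 8.14 in BALB/cCrl mutant 4, and at 2.93 to 3.36 in the other 14 embryos. Without those 2 embryos the Csn3 difference in BALB/cCrl was -1.08. The log2 ratio of the 3′ to the 5′ Gapdh control probe sets, a sign of RNA integrity, ran from 0.006 to 0.028 in BALB/cCrl mutants and from -0.04 to 0.002 in the wild types of that strain. In FVB/N it ran from -0.042 to 0.021 in mutants and from -0.095 to -0.042 in wild types. Its part in the Csn3 difference was not tested.

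Markers of cells that could carry casein transcripts or remain attached to an embryo were read beside Csn3, each gene by its probe set of highest mean. Across the 5 marker lists, 0 genes passed the limma test between mutants and wild types in either strain, where 0.0440% of all genes did in BALB/cCrl and 0.511% in FVB/N. The number of markers with an unadjusted p under 0.05 was 3 of 13 for surface ectoderm and simple epithelium, 1 of 15 for visceral endoderm, 2 of 8 for trophoblast, 2 of 17 for decidua and 0 of 8 for mammary epithelium in BALB/cCrl, where 9.72% of all genes had such a p. In FVB/N only the decidua list had such a gene, 1 of 17, where 11.0% of all genes did. The summed level of the visceral endoderm list (log2 of the summed linear values) ran from 14.62 to 15.34 in BALB/cCrl wild types, 14.17 to 15.71 in the mutants, 14.71 to 15.47 in FVB/N wild types and 13.52 to 15.37 in FVB/N mutants. The median log2 difference of its 15 genes was -0.15 in BALB/cCrl and -0.39 in FVB/N, beside -0.0069 and 0.0015 over all genes, and its part in the Csn3 difference was not tested. Of the surface ectoderm markers, Trp63 (-0.33, SE 0.12), Epcam (-0.26, SE 0.079) and Grhl3 (-0.21, SE 0.095) fell most in BALB/cCrl mutants. The rest of that list ran from -0.18 to 0.04. In FVB/N the same genes differed by -0.15, 0.16 and -0.20. The summed surface ectoderm markers ran from 13.91 to 14.0 in BALB/cCrl wild types and 13.685 to 14.01 in the mutants. In FVB/N they ran from 13.94 to 14.05 in wild types and 13.73 to 14.07 in mutants. The summed mammary epithelium markers ran from 10.00 to 10.56 in BALB/cCrl wild types, 9.87 to 10.30 in the mutants, 10.34 to 10.54 in FVB/N wild types and 10.03 to 10.53 in FVB/N mutants. Lef1 and Tbx3, with means of 9.45 and 7.95, weigh most in this sum, and the milk gene Wap was at 5.05. The sum is thus not a measure of mammary cells. Of the trophoblast markers 4 of 8 lay above the limit of dim probe sets, and of the decidua markers 9 of 17. The summed trophoblast markers ran from 9.68 to 10.35 in BALB/cCrl wild types, 9.60 to 9.87 in the mutants, 9.55 to 10.31 in FVB/N wild types and 9.51 to 10.04 in FVB/N mutants. Plac1, a placental gene, had a mean of 8.45 and log2 differences of -0.66 (SE 0.31, adjusted p = 0.511 in limma) in BALB/cCrl and -0.55 (SE 0.31, adjusted p = 0.494) in FVB/N. Hand1, a factor of trophoblast giant cells that heart and mesoderm also express, had a mean of 8.49 and differences of 0.18 (SE 0.14) and 0.10 (SE 0.14). The decidual prolactin-family gene Prl8a2 had a mean of 5.77 and varied within groups, with an SD of 1.25 in BALB/cCrl wild types and 1.31 in the mutants. Tpbpa (spongiotrophoblast), Psg17 and Prl3c1 were at background, with means of 3.87, 3.64 and 3.73. The part of these markers in the Csn3 difference was not tested.

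No other listed milk protein gene was called in any contrast. Of 19 listed genes 17 were measured, 14 of them above the limit of dim probe sets, and 0 passed the limma test in any of the 4 contrasts, with 0, 2, 1 and 1 genes at an unadjusted p under 0.05 in BALB/cCrl genotype, FVB/N genotype, wild type strain and mutant strain. Over all genes the shares at that unadjusted p were 9.72%, 11.0%, 19.4% and 24.1% in the same order. Wap, the whey acidic protein of mouse milk, had a mean of 5.05 and log2 differences between mutant and wild type of 0.08 (SE 0.079) in BALB/cCrl and -0.0015 (SE 0.079) in FVB/N. Lalba, the alpha-lactalbumin that directs lactose synthesis, had a mean of 6.37 and differences of 0.17 (SE 0.12) and 0.02 (SE 0.12). The members with the highest means have wider roles: Plin2, a coat protein of lipid droplets, at 10.66, the milk fat globule protein Mfge8 at 10.10, the folate receptor Folr1 at 8.29 and the aldolase Aldoc at 8.18. Aldoc had log2 differences of -0.20 (SE 0.10, adjusted p = 0.56 in limma) in BALB/cCrl and -0.31 (SE 0.10, adjusted p = 0.195) in FVB/N.

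Of 25 listed prolactin, glucocorticoid and Stat5 regulators of casein genes in the mammary gland, 21 were measured. Of these 20 lay above the limit of dim probe sets, as did 33471 of all 45037 probe sets. None of the 21 passed the limma test between mutants and wild types. At an unadjusted p under 0.05 there were 2 in BALB/cCrl, where 9.72% of all genes were. In FVB/N there were 6 of 21, a larger share than the 11.0% of all genes. The median log2 difference of the 21 was -0.06 in BALB/cCrl and -0.08 in FVB/N, beside -0.0069 and 0.0015 over all genes. Stat5a had means of 6.31 ± 0.078 (SD, n = 4) in wild type BALB/cCrl embryos and 6.23 ± 0.14 in their mutants, and 6.53 ± 0.092 in FVB/N wild types and 6.26 ± 0.085 in mutants. Its difference in FVB/N, -0.27 (SE 0.084), had an adjusted p of 0.163 in limma. Gata3 (-0.34, SE 0.10), Cebpd (-0.32, SE 0.12), Cebpb (-0.22, SE 0.10), Ghr (-0.18, SE 0.067) and Socs2 (-0.15, SE 0.055) were also lower in FVB/N mutants. Their adjusted p ran from 0.15 to 0.401 in limma. In BALB/cCrl the same genes ran from -0.30 (Cebpd) to 0.09 (Cebpb). The largest rise among the regulators in FVB/N was 0.10 (SE 0.086), in Nfia. The part of the regulators in the Csn3 difference was not tested. Stat5b differed by -0.07 (SE 0.094) in each strain, and the prolactin receptor kinase Jak2 by -0.07 (SE 0.065) in BALB/cCrl and -0.12 (SE 0.065) in FVB/N. The glucocorticoid receptor Nr3c1 differed by 0.03 (SE 0.12) and 0.0033 (SE 0.12). Highest by mean were the zinc finger factor Yy1 (12.07), the helix-loop-helix inhibitor Id2 (11.91), the growth factor receptor Igf1r (10.75) and the deacetylase Hdac3 (9.93). The prolactin receptor gene Prlr was not analysed here.

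Between strains, where 6.90% of genes were called in wild types and 11.4% in mutants, 1 of the 21 regulators was called in wild types and 2 of 21 in mutants, shares no higher than the background. Socs2, a feedback inhibitor of cytokine signalling, was lower in BALB/cCrl, by -0.35 in wild types (SE 0.055, adjusted p = 1.95e-04 in limma) and -0.21 in mutants (SE 0.055, adjusted p = 0.0178). Gata3, a zinc finger factor of mammary luminal cells, was 0.39 higher in BALB/cCrl mutants than in FVB/N mutants (SE 0.10, adjusted p = 0.015). Among the ISWI and marker lists the genes called between strains were Epcam and Lum in wild types, and Baz1b, Baz2a, Tfap2c, Grhl2 and Lum in mutants. The 7 genes for phosphorylation and cleavage of secreted proteins included Fam20c, the kinase that phosphorylates caseins. In the order of contrasts given for the milk protein genes, 0 of the 7 passed in any. Of all genes 0.0440%, 0.511%, 6.90% and 11.4% passed. At an unadjusted p under 0.05 there were 0, 1, 2 and 0 of the 7, beside 9.72%, 11.0%, 19.4% and 24.1% of all genes. Fam20c averaged 6.98, with differences of -0.03 (SE 0.098) in BALB/cCrl and -0.31 (SE 0.098, adjusted p = 0.178 in limma) in FVB/N. The highest by mean were the xylose kinase Fam20b (9.30), the plasminogen activator Plat (8.93), the proprotein convertase Furin (8.19) and Fam20c itself.

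Around Csn3, 57 annotated genes other than caseins start within 1 Mb, and 25 of them were measured, 9 above the limit of dim probe sets. None of the 25 passed the limma test between mutants and wild types in either strain. Of all genes, 0.0440% did so in BALB/cCrl and 0.511% in FVB/N. At an unadjusted p under 0.05 there were 4 in BALB/cCrl, where 9.72% of all genes were, and 2 in FVB/N, where 11.0% were. The nearest measured gene toward the other caseins was Odam, an odontogenic secreted protein gene starting at -40.6 kb from the Csn3 start, with a mean of 3.54 and differences of 0.16 (SE 0.12) in BALB/cCrl and 0.17 (SE 0.12) in FVB/N. Cabs1, starting at 53.9 kb on the other side, had a mean of 4.18 and differences of -0.25 (SE 0.080, adjusted p = 0.382 in limma) and -0.0057 (SE 0.080). The neighbours with the highest means, all starting 628.9 kb or more away, were Grsf1 (12.19), Utp3 (11.40), Dck (11.10) and Mob1b (8.69). Utp3, a ribosome biogenesis factor, was the 1 neighbour called in a strain contrast. Its difference was -0.18 for BALB/cCrl minus FVB/N mutants (SE 0.052, adjusted p = 0.0269 in limma). Of all genes 11.4% were called between mutants and 6.90% between wild types. Of 18 measured genes in the list of secretory and other genes at the casein locus, 6 were above the limit of dim probe sets. Between genotypes 0 were called, beside the shares of 0.0440% and 0.511% of all genes. At an unadjusted p under 0.05 there were 3 in BALB/cCrl and 2 in FVB/N, beside 9.72% and 11.0% of all genes.

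**Figure D4:**
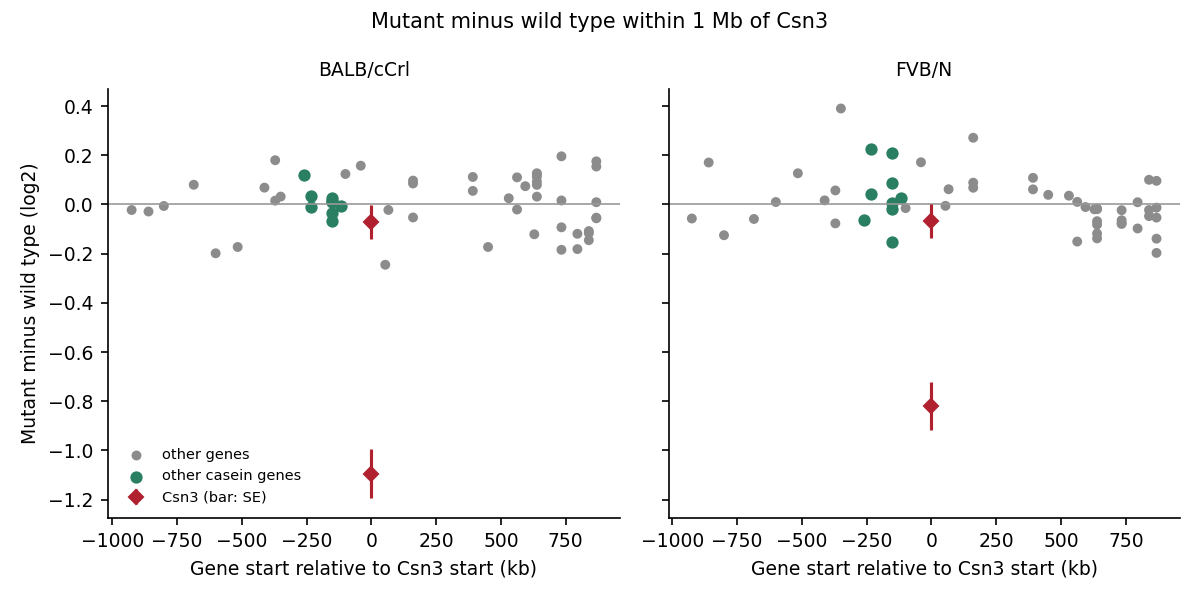
Log2 difference, mutant minus wild type (y axis), for every probe set of genes that start within 1 Mb of Csn3, by the distance of the gene start from that of Csn3 in kb (x axis), in BALB/cCrl (left) and FVB/N (right). Red diamonds are the 2 Csn3 probe sets with SE bars, 1 of them at -1.10 and -0.82, and green points are the other caseins, which lie between -0.15 and 0.22.

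Cecr2, the trapped gene, was read by probe set 1457039_at at 8.31 ± 0.24 (SD, n = 4) in wild type BALB/cCrl embryos and 5.95 ± 0.064 in their mutants. In FVB/N it was at 8.24 ± 0.18 (SD, n = 4) in wild types and 6.24 ± 0.11 in mutants. Of the 9 listed ISWI genes Cecr2 alone passed the limma test between mutants and wild types in each strain. Its log2 difference was -2.363 (SE 0.11, adjusted p = 1.93e-10 in limma) in BALB/cCrl and -2.004 (SE 0.11, adjusted p = 2e-09 in limma) in FVB/N. Of all genes 0.0440% passed in BALB/cCrl and 0.511% in FVB/N. At an unadjusted p under 0.05 there were 3 of the 9 in BALB/cCrl and 2 in FVB/N, Cecr2 among them. Of all genes 9.72% and 11.0% had such a p. Baz2a differed by 0.26 (SE 0.058, adjusted p = 0.193 in limma) in BALB/cCrl and 0.07 (SE 0.058) in FVB/N. Baz1a differed by -0.02 (SE 0.068) and -0.25 (SE 0.068, adjusted p = 0.111 in limma). Csn3 1419735_at and Cecr2 1457039_at correlated at r = 0.96 over the 16 embryos. With the group means taken out, r was 0.14, and with the other Cecr2 probe set, 1431014_at, the values were 0.88 and -0.31. The likeness of the 2 genes thus lay between the groups and was weak among embryos of the same group. Csn3 was chosen as lower in mutants, so a high r with the trapped gene over all embryos follows from that choice.

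**Figure D5:**
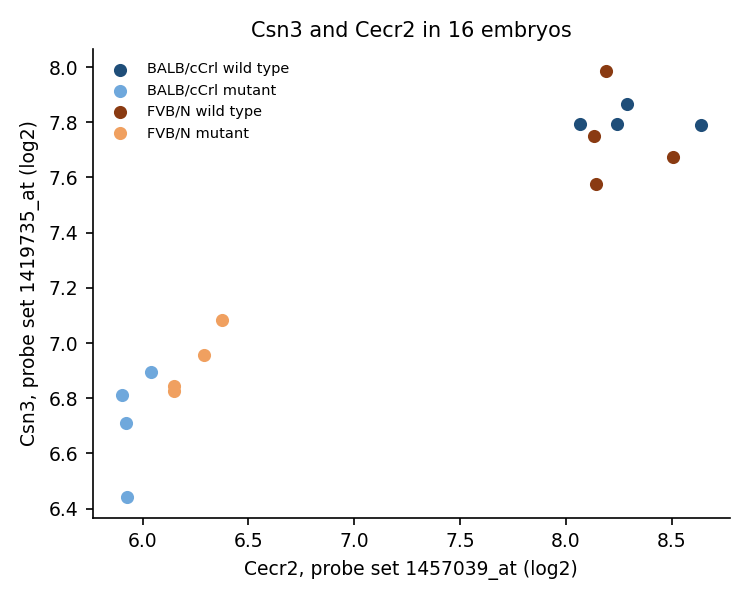
Csn3 1419735_at (y axis, log2) against Cecr2 1457039_at (x axis, log2), 1 point per embryo, coloured by group. Mutants and wild types form separate clouds on both axes, and the r of 0.96 over 16 embryos is 0.14 for deviations from the group means.

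The genes with the pattern most like Csn3 were ranked by Pearson r over the 16 embryos among 27806 probe sets above the limit of dim ones with 1 gene symbol, whose median r was 0.036. After Cecr2, itself on chromosome 6, came Cops7a, a subunit of the COP9 signalosome (r = 0.93, chromosome 6), and Alx1, a homeobox factor of head mesenchyme (r = 0.92, chromosome 10). Next were Pianp, a neural membrane protein gene (r = 0.88, chromosome 6), and Dlx5, a homeobox factor of the craniofacial skeleton (r = 0.87, chromosome 6). Cops7a, Pianp and Dlx5 thus share the chromosome of the trapped gene, and the part of this in their likeness was not tested. Alx1 averaged 7.60 ± 0.13 (SD, n = 4) in wild type BALB/cCrl embryos and 6.77 ± 0.16 in their mutants, and 7.70 ± 0.17 in FVB/N wild types and 7.05 ± 0.13 in mutants. Its log2 differences were -0.83 and -0.65, beside -1.10 and -0.82 for Csn3. Cops7a had smaller differences, -0.25 and -0.22. Spearman's coefficient kept 4 of these 5 genes. Within groups the list was a different one, and 0 of the 5 were shared. By r of deviations from group means the first 5 were Tmem214 (0.89), Nusap1 (0.87), Nkd1 (0.86), Dlx3 (0.86) and Rspo2 (0.86). These are the highest of 27806 probe sets, whose median r of deviations was 0.024, and they carry no test. All of these r values are descriptions over 16 arrays, and all genes share these arrays and their groups. Csn3 was chosen as lower in the mutants of each strain, so genes lower there head the ranking over all embryos through that choice.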

How the data were processed

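Log2 expression values of 16 arrays, normalised together over the 4 groups by the authors, were used as deposited; the series table equalled the 4-group one. RMA and GCRMA are named in the submitters' processing notes, with no version and without saying which of them was used there. The authors deposited 3 further log2 tables, made by gcRMA for 1 pair of groups each, which were tried as another processing. No gcRMA values were used here for the mutant pair. Arrays carry no read depth, and 4 arrays per group limit the precision.

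All 45037 probe sets were fitted in limma 3.58.1 (R 4.3.3, data.table version 1.17.8) with a mean for each group and an intensity trend, without covariates. P-values were adjusted by Benjamini and Hochberg over all probe sets, with a threshold of 0.05, and the procedure was tested on simulated data. Intervals are 95% intervals of the fit. Tables and figures were made with Python 3.11.15, pandas 2.3.3, numpy 2.4.6 and matplotlib 3.10.9.

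Of the probe sets, 34945 carried 1 gene symbol in the platform annotation, 932 several and 9160 none, and a listed gene was represented by its probe set of highest mean. Positions came from the GRCm38.p6 annotation through Entrez identifiers. Named genes were all casein probe sets, Cecr2 and the 5 genes most like Csn3 by each measure. In each list, called members and up to 4 with the highest mean were also named. Added after their values were seen were Wap, Lalba, Stat5a, Stat5b, Jak2, Nr3c1, Cebpb, Cebpd, Ghr, Nfia, Baz1a, Fam20c, Odam and Cabs1. So were the marker genes that were not called. The members and lists were chosen with earlier results of these data known. The alternatives were quantile normalisation, median centring, no intensity trend, array weights, no dim probe sets, the 8 arrays of a contrast alone, the gcRMA tables, a replicate block and each array left out; leaving out the pairs of arrays that stand apart was added after seeing the data.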

Additional observations from a re-analysis of the deposited data

Results flagged for a closer look

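In 3 of the 44 sets of 4 embryos formed by 11 casein probe sets and 4 groups, 1 embryo lay apart from the other 3 of its group, with a gap to them that took up most of the group's range. Chance sets about 1 in 20 such groups apart. For Csn3 1419735_at, BALB/cCrl wild type 1 was at 7.87 while the other 3 were all at 7.79, a small gap in a group that hardly varied. This embryo also carried the Gzmd level of 7.24, and the part of that in its Csn3 value was not tested. For Csn1s2a 1436170_a_at, FVB/N mutant 3 was at 4.28 and the others at 4.12 to 4.15. For Csn1s2a 1420633_a_at, FVB/N mutant 1 was at 3.34 and the others at 3.67 to 3.72. The last 2 probe sets were at background in every group.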

How the results depend on the processing

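The Csn3 difference between mutants and wild types kept its sign in all settings, which use the same embryos that chose the gene. Under the gcRMA tables it was -1.59 in BALB/cCrl and -1.73 in FVB/N, and under the other settings that used all arrays of the contrast it moved by less than the spread between replicates. With each array left out in turn it ran from -1.16 to -1.005 in BALB/cCrl and from -0.88 to -0.74 in FVB/N. The Csn3 strain differences passed the test in none of the 17 settings tried. The Csn1s1 call between mutants was lost only without FVB/N mutants 3 and 4, where 0 casein probe sets were called.

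The number of listed genes called between wild types was 3, where 6.90% of all genes were called. It was 5 with array weights and 5 with the 8 arrays alone, where all called probe sets went from 3036 to 4260 and 3852. Between mutants the number of listed genes called was 8, where 11.4% of all genes were called. It was 4 with no intensity trend, 3 with the 8 arrays alone and 4 without FVB/N mutants 3 and 4. In those settings all called probe sets went from 4861 to 4323, 3245 and 4398. With each array left out it was 2 to 7 listed genes. The genes most like Csn3 shared 0 of 5 by deviations from group means. Over all probe sets, BALB/cCrl genotype calls numbered 9, and 14 with centring, 50 with array weights, 3 under gcRMA, 22 without the 2 embryos with Gzmd and 8 to 115 with an array left out. FVB/N genotype calls numbered 268, and 169 with quantile normalisation, 162 with no trend, 13 under gcRMA, 42 without mutants 3 and 4, and 55 to 287 with an array left out. Wild type strain calls numbered 3036, and 1528 under gcRMA. The causes were not tested.

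Replicate numbers did not pair the embryos: deviations of same-numbered embryos correlated at -0.145 to 0.169, and not every pair exceeded 0.1. With the replicate block, the Csn3 strain difference stayed at 0.06 in wild types (adjusted p = 0.804 in limma) and at -0.21 in mutants (adjusted p = 0.238), Csn1s1 kept its call, and 6 listed genes were called between mutants. Dim signal is the limit for 9 of the 11 casein probe sets, and Csn1s1 lies just above it.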
